A study of Rattus norvegicus with 6 samples.

Results

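The genes of cholesterol and fatty acid synthesis were followed in cultured rat spinal cord astrocytes, the glial cells that support neurons. A fixed list of 30 genes was used: the enzymes from acetyl units to cholesterol, 4 enzymes of fatty acids and phospholipids, a sterol transporter and the transcriptional regulators of both routes. Probe sets whose only gene symbol was that of a list member were found for 29 of the 30 genes, of 14217 genes on the array. Hmgcs1 had no such probe set and is not analysed here. The 29 genes were read by 49 probe sets, and each is described by the probe set with the highest mean log2 signal over the 6 arrays. The rule itself uses no difference between arrays.

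The 6 arrays form 2 groups of 3. NonTG arrays hold RNA of astrocytes from nontransgenic rats, and hSOD1G93A arrays hold RNA of astrocytes from rats that carry a human mutant superoxide dismutase transgene linked to amyotrophic lateral sclerosis. Both groups were primary cultures, grown to confluence and kept in supplemented L15 medium for 24 h before 5 ug of total RNA was labelled. The age of the rats, the promoter of the transgene and the number of animals behind a sample are not given in the sources used here. The 3 arrays of a group carry the letters A, B and C. No label says what a letter stands for or that samples came from separate cultures, so p-values here measure only sample spread, and that may be technical.

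Cells make cholesterol from acetyl units through mevalonate and squalene, and the genes of this route are switched on together by the transcription factor SREBP2 when sterols in the membrane run low. The related factor SREBP1, itself induced by the oxysterol receptors LXR alpha and LXR beta, drives fatty acid synthesis. In the nervous system cholesterol is made locally, because lipoproteins of the blood do not cross into it, and astrocytes are a main source of it for neurons.

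The values are MAS5 signals, the authors' linear intensity per probe set, scaled so that the trimmed mean of every array lay between 500.16 and 500.17. Differences are in log2 units, where 1 is a doubling, and signals of different genes are not compared with each other. Arrays correlated with each other at 0.967 to 0.985 over 18625 probe sets, those above a dim filter set at a signal of 66.7. All 29 genes passed that filter. Of the astrocyte markers, 9 of 9 measured were above it in these cultures, against 3 of 10 for microglia, where Cx3cr1, Csf1r, Aif1, Itgam and Ptprc were dim. Markers of fibroblasts (9 of 10), neurons (9 of 10) and pericytes and smooth muscle (8 of 10) were also above it, with 5 of 9 for the oligodendrocyte lineage and 4 of 9 for endothelium. Of all 14217 genes on the array, 10473 were above it. Passing the filter therefore does not by itself show that a cell type was present. The cells the markers came from were not tested. In such bulk RNA, fewer cells of a type and less RNA per cell cannot be told apart. No value here checks the human transgene, and the genotype rests on the labels.

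Between genotypes, none of the 29 genes passed the test. The differences ran from -0.12 for Ebp to 0.22 for Dhcr7, with 18 genes higher and 11 lower in hSOD1G93A and a median of 0.06. Over all probe sets tested 52% were higher, with a median difference of 0.01. By limma with Benjamini-Hochberg adjustment 0 of 29 genes passed an adjusted p of 0.05, and 0 had an unadjusted p below 0.05, the smallest being 0.103. Over the whole array 0% of probe sets passed, and 2.54% had an unadjusted p below 0.05. This fit left out the letters. With the letters in it as a block, 0 of 29 genes passed and 1 had an unadjusted p below 0.05, as did 1090 of 18625 probe sets.

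The precision of these differences was as follows. The standard error of a gene's difference was 0.08 to 0.35, with a median of 0.12. On the brightest probe sets, the 95% confidence interval of 28 of the 29 genes reached neither a 1.5-fold rise nor a 1.5-fold fall. None of these intervals reached 2-fold. The exception to the narrower bound was Nr1h3, whose interval ran from -0.61 to 0.98. Dimmer probe sets could reach further, as for Ggps1 (1386215_at), from -0.25 to 1.02, past 2-fold. Without hSOD1G93A A the median over the 29 genes was -0.00146 and without NonTG B it was 0.000301, so without either array it was near 0. Its sign changed only without hSOD1G93A A. Without any other array it was 0.03 to 0.07.

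**Figure D1:**
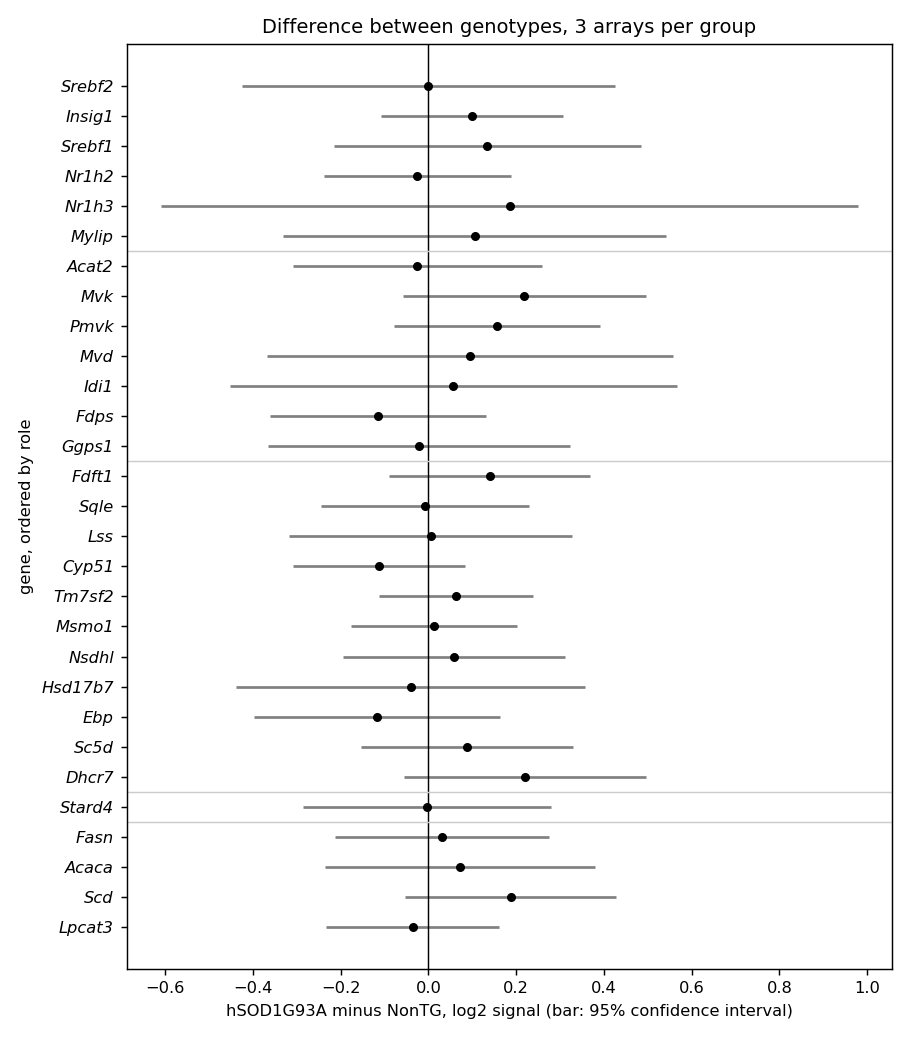
Difference in log2 signal between hSOD1G93A and NonTG for 29 genes (rows, grouped by role), with 3 arrays per group; points are differences and bars are 95% confidence intervals from limma. All 29 intervals include 0, and the widest belongs to Nr1h3.

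The regulators showed no difference beyond their spread. Srebf2, which encodes SREBP2, gave signals of 1221, 808 and 1008 in NonTG A, B and C and 1028, 787 and 1229 in hSOD1G93A A, B and C. The groups overlapped almost wholly, with a difference of -0.00048 (SE 0.19, 95% interval -0.43 to 0.42). Srebf1, which encodes SREBP1, was at 1446, 1660.5 and 1824 in NonTG and at 1400, 2079 and 1989 in hSOD1G93A, a difference of 0.13 (SE 0.16). Its lowest arrays were the A arrays of both groups.

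Insig1 encodes the membrane protein that holds the SREBP precursors in the endoplasmic reticulum when sterols are plentiful. Its signals were 1995, 2024 and 2027 in NonTG and 2024, 2422 and 2053 in hSOD1G93A, so that hSOD1G93A B alone stood above a narrow range (difference 0.10, SE 0.09). Nr1h2, the gene of LXR beta, was at 1247, 1156 and 1330 in NonTG and 1284, 1193 and 1186 in hSOD1G93A, with overlap and a difference of -0.03 (SE 0.09). Nr1h3, the gene of LXR alpha, was dim: 69.7, 77.2 and 115.3 in NonTG against 63.3, 137.4 and 104.8 in hSOD1G93A. One of these signals lay below the level of the dim filter, and its difference of 0.18 (SE 0.35) is the least certain of the set. Mylip, an LXR target whose product marks lipoprotein receptors for degradation, was at 165, 167 and 234 in NonTG and 214, 194 and 192 in hSOD1G93A (difference 0.11, SE 0.19).

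Of the 7 measured enzymes from acetyl units to isoprenoids, 4 were higher and 3 lower in hSOD1G93A, with a median of 0.06. Mvk, the mevalonate kinase, read 582, 624 and 531 in NonTG and 742, 680 and 602 in hSOD1G93A, where 1 array fell inside the NonTG range. Its difference of 0.22 (SE 0.12) was the largest of these, with a 95% interval from -0.06 to 0.50. Another Mvk probe set (1387119_at), almost as bright, differed the other way, by -0.15 (SE 0.14), so these 2 probe sets disagreed on the direction.

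Pmvk, which adds the next phosphate, was 1 of 2 genes whose groups did not overlap. Its NonTG signals were 674, 680 and 624 and its hSOD1G93A signals 733, 779 and 695, a difference of 0.16 (SE 0.10) and a fold of 1.12. The other was Tm7sf2, a sterol reductase, at 1777, 1753 and 1742 against 1784, 1874 and 1850, a difference of 0.06 (SE 0.08). Over the array 7.51% of probe sets had groups without overlap, and 2 of 29 is near that share. With an array left out the count was 3 to 9, as fewer arrays leave less room for overlap. It was 5 without NonTG A, 5 without NonTG C and 6 without hSOD1G93A C, against 20%, 14.6% and 14.4% of all probe sets in the same settings. It was 9 without hSOD1G93A A, against 22.6%, and 3 without either B array, against 15.6% (NonTG) and 15.5% (hSOD1G93A).

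Fdps, which makes farnesyl diphosphate, was at 5837, 5203 and 5253 in NonTG and at 5855, 4925 and 4359 in hSOD1G93A. The groups overlapped, and its difference was -0.11 (SE 0.11). Acat2, which joins acetyl units at the first step, was at 2375, 2080 and 2121 in NonTG and 2610, 1884 and 2020 in hSOD1G93A (difference -0.03, SE 0.13). Mvd, which makes isopentenyl diphosphate, ran from 348 to 480 in NonTG and from 313 to 500 in hSOD1G93A, a wider range than the distance between group means. Ggps1, which makes geranylgeranyl diphosphate for protein prenylation, differed by -0.02 (SE 0.15).

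Of the 11 enzymes from squalene to cholesterol, 7 were higher and 4 lower, with a median of 0.01. Dhcr7, which carries out a last reduction to cholesterol, had the smallest p of all 29 genes. It was at 2084, 1887 and 1572 in NonTG and 2206, 2326 and 1907 in hSOD1G93A, or 1.17-fold (0.22 in log2, SE 0.12, with a 95% interval from -0.05 to 0.50). It was higher in hSOD1G93A within each letter, by 0.08, 0.30 and 0.28, though the groups overlapped. Its adjusted p was 0.9997 by limma and 0.834 to 1 over the alternatives. With the letters as a block in the fit, the difference was the same, with an SE of 0.08 and an adjusted p by limma of 0.834.

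Fdft1, the squalene synthase, was at 1395, 1159 and 1306 in NonTG and 1457, 1468 and 1319 in hSOD1G93A, a difference of 0.14 (SE 0.10). Only the lowest hSOD1G93A array lay inside the NonTG range. Its second probe set (1389906_at) differed by -0.03 (SE 0.13), and the mean over both gave 0.053. Sqle, the squalene epoxidase and a rate-limiting enzyme of the route, had near-equal group means, at 2618, 2420 and 2072 against 2481, 2405 and 2164 (difference -0.01, SE 0.11). Cyp51, the lanosterol demethylase, differed by -0.11 (SE 0.09) on its brightest probe set (1367979_s_at), with signals of 8361, 8107 and 8316 against 8596, 7522 and 6890.

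The second Cyp51 probe set (1387020_at) again pointed the other way. It read 2354, 2095 and 2346 in NonTG and 2710, 2373 and 2768 in hSOD1G93A, without overlap, a difference of 0.21 (SE 0.09, unadjusted p by limma 0.052). The direction for Cyp51 therefore depended on the probe set. Lss, Nsdhl, Msmo1, Hsd17b7, Ebp and Sc5d, which close the ring and then trim and rearrange the sterol, differed by -0.12 to 0.09 on their brightest probe sets. The upper end is Sc5d, whose 2 dimmer probe sets (1389111_at and 1390777_at) differed by -0.09 (SE 0.08) and -0.23 (SE 0.23). Of the 14 genes with a second probe set above the filter, 7 had a difference of opposite sign on it: Cyp51, Fdft1, Ggps1, Lpcat3, Mvk, Nsdhl and Sc5d.

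The remaining 5 genes gave no call. Stard4, a carrier of cholesterol between membranes, differed by -0.0036 (SE 0.13). Scd, the desaturase that makes oleic acid, had the largest difference of the fatty acid genes, 0.19 (SE 0.11). Its signals were 1456, 1484 and 1242 in NonTG and 1443, 1699 and 1616 in hSOD1G93A, where the A arrays were alike and the B and C arrays higher. Fasn, the fatty acid synthase, was at 1871, 1499 and 1609 against 1844, 1596 and 1636 (difference 0.03, SE 0.11). Acaca, which makes malonyl units for it, differed by 0.07 (SE 0.14) and Lpcat3, which places polyunsaturated fatty acids in phospholipids, by -0.04 (SE 0.09).

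Within the letters, the genotype difference was also read for the 18 sterol enzymes measured from acetyl units to cholesterol. Under A, 16 of the 18 were higher in hSOD1G93A, with a median of 0.07. Under B it was 9 of 18, with a median of 0.0029, and under C 11 of 18, with a median of 0.02. The other 11 genes of the list were ordered differently. Under A 3 of them were higher in hSOD1G93A (median -0.05), under B 9 (0.19) and under C 7 (0.02). Over all probe sets tested the medians were 0, 0.01 and 0.01. With 1 array of each group per letter these values have no test.

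Other pathway genes outside the list, of lipid and isoprenoid synthesis, conversion, transport and regulation, gave no call either. Of 40 such genes 36 were on the array and 33 above the dim filter, and 0 of the 33 passed for genotype. They were higher in 22 cases and lower in 11, with a median of 0.03. The smallest unadjusted p by limma was 0.0585, for Dhdds, which extends isoprenoid chains to dolichol, with a difference of -0.44 (SE 0.21). Acsl3, an acyl-CoA synthetase, differed by 0.17 (SE 0.09) and Rxrb, a partner of the LXR receptors, by -0.31 (SE 0.17). The groups did not overlap for these 3 genes and for Fads2, a fatty acid desaturase, 4 of 33 or 12.1%, against 7.51% of all probe sets.

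By letter, 1 gene passed the test, Idi1, and many sterol enzymes had their highest signal under A. In both groups the A array carried the highest signal of its 3 arrays for 12 of the 29 genes, or 41.4%, against 15.7% of all probe sets tested. For the sterol enzymes it was 10 of 18 (55.6%), and for 0 of the 18 was A the lowest in both groups. B was highest in both groups for 2 of the 29 genes and C for 1, against 16.2% and 12.9% of all probe sets. For the same 12 genes both A arrays stood above all 4 others, and for 3 genes below all 4, against 12% and 12.6%. Letter A was singled out after the values were seen, and these counts describe the arrays with no test.

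**Figure D2:**
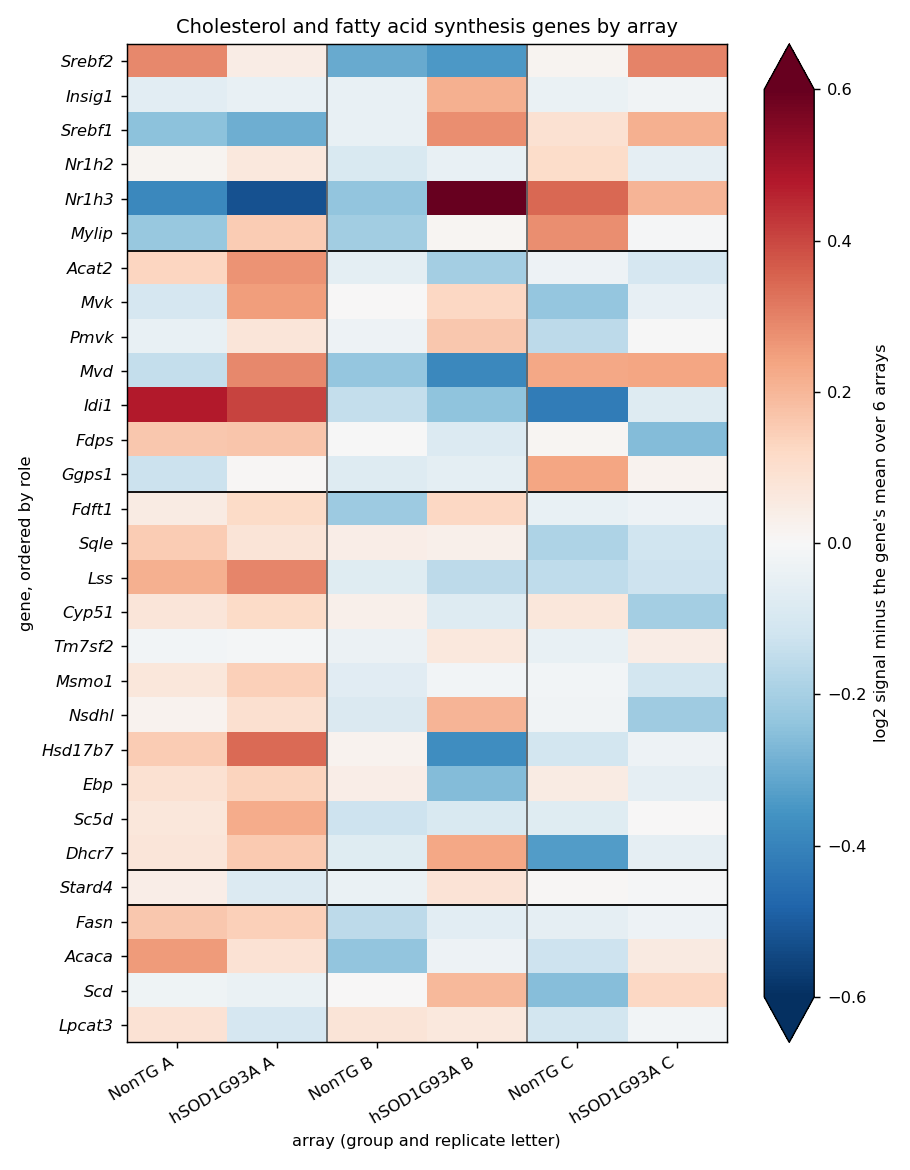
Log2 signal of 29 genes (rows, grouped by role) on 6 arrays (columns, paired by letter), as the difference from the gene's mean over the 6 arrays; red is higher and blue lower, and colours saturate at 0.6. The A columns are mostly red among the sterol enzymes, Idi1 most of all, while Srebf1 and Nr1h3 are blue there.

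The gene that passed, Idi1 (1368878_at), encodes the isomerase that makes dimethylallyl diphosphate. It read 7287, 4744 and 3911 on NonTG A, B and C and 6936, 4423 and 4962 on hSOD1G93A A, B and C. Both A arrays stood above the 4 others, and the mean of A was 1.58-fold that of B and C (0.76 in NonTG and 0.57 in hSOD1G93A, log2). In limma's test of the letters, with genotype in the fit, its adjusted p was 0.0312, the only call among the 29 genes, where 1.05% of probe sets passed. The call was lost with no dim filter (adjusted p by limma 0.0576) and without an intensity trend (0.353). With an array left out, 1 letter has a single array and its spread is taken from the others; the adjusted p then ran from 2.69e-08 to 0.0357. A dimmer Idi1 probe set (1388872_at) followed it, at 1420, 1045 and 1062 in NonTG and 1604, 1079 and 919 in hSOD1G93A.

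Lss, the lanosterol synthase, had the next smallest p. It was at 1877, 1539 and 1458 in NonTG and 1980, 1450 and 1484 in hSOD1G93A, again with both A arrays above the rest and a 1.30-fold mean. It did not pass (adjusted p by limma 0.131, unadjusted 0.00462), and its second probe set (1368086_a_at) read 1039, 881 and 730 against 1071, 963 and 726, with the same highest arrays. Acat2 (1.23-fold) and Fdps (1.19-fold), whose signals are given above, shared the pattern without passing. The other sterol enzymes with A highest in both groups were Hsd17b7, Sc5d, Sqle, Ebp, Msmo1 and Cyp51, with A over B and C by 0.14 (Cyp51) to 0.37 (Hsd17b7). In NonTG alone the gap was 0.03 for Cyp51 and 0.05 for Ebp. The second probe sets of Cyp51 (1387020_at) and Sc5d (1389111_at) were highest under C in hSOD1G93A. The second of Hsd17b7 (1387233_at) and the dimmest of Sc5d (1390777_at) had A highest in both groups. Unadjusted p for the letters was below 0.05 for 9 of the 29 genes, or 31.0%, against 15.6% over the array.

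**Figure D3:**
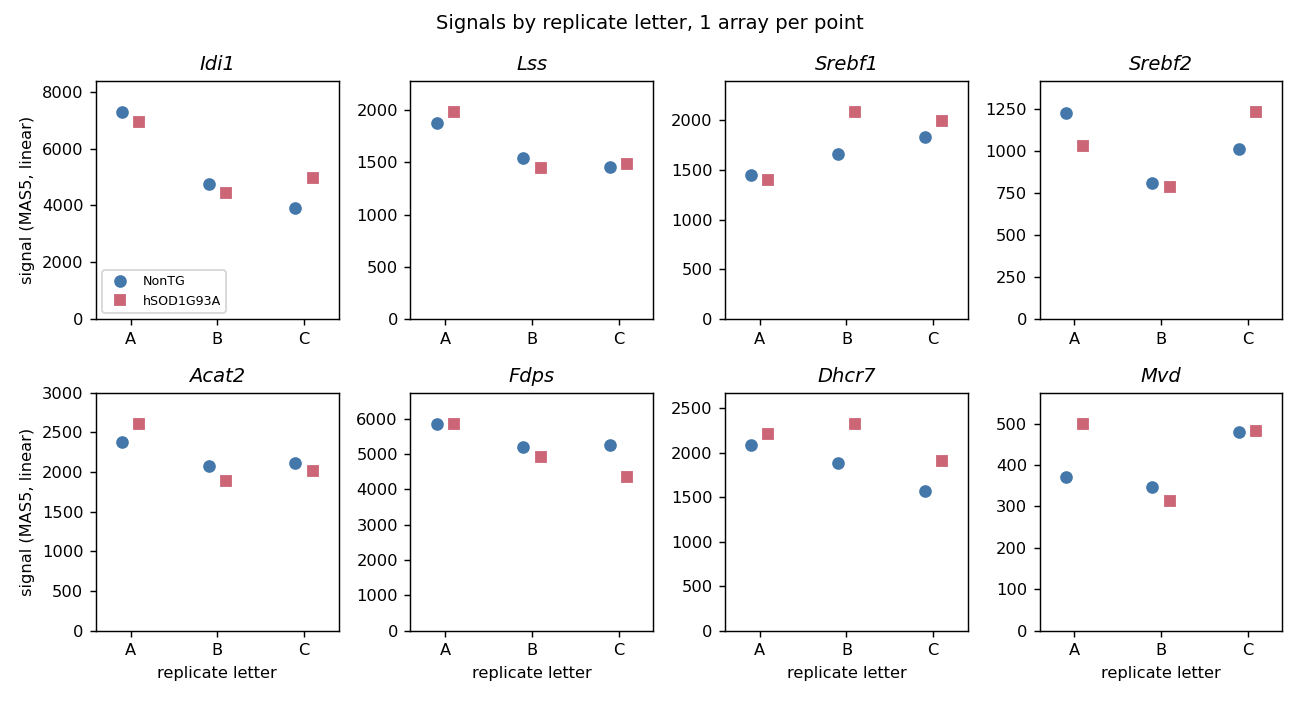
Signals (linear MAS5 intensity, axes from 0) of the 8 genes that ranked first by p between letters, with 1 point per array, by letter; circles are NonTG and squares hSOD1G93A. Idi1, Lss, Acat2 and Fdps are highest under A in both groups, Srebf1 is lowest there, and Srebf2 and Mvd are lowest under B.

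Other enzymes were ordered differently. Tm7sf2 varied little between letters, with A against B and C at 0.02 in NonTG and -0.06 in hSOD1G93A, and Pmvk likewise at 0.05 and -0.0054. Mvd was lowest under B in both groups, and Dhcr7 was lowest under C. Fasn (0.27 and 0.19) and Acaca (0.43 and 0.08) had A highest in both groups, but Scd did not (0.10 and -0.20). The second Fasn probe set (1367707_at) also had A highest in both groups. The second of Acaca (1387538_at) had A lowest in NonTG, at 184, 205 and 227, and highest in hSOD1G93A, at 247, 180 and 242.

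The regulators were counted in the same way. For 0 of the 6 was A the highest in both groups, and for 3, Srebf1, Nr1h3 and Insig1, it was the lowest in both, where 17.4% of all probe sets had A lowest. For Insig1 the gap to the mean of B and C was small, at -0.02 in NonTG and -0.14 in hSOD1G93A. The A signals of Nr1h3, 69.7 and 63.3, lay near the dim filter. Unadjusted p by limma for the letters was 0.353 for Insig1 and 0.161 for Nr1h3. Srebf2 and Nr1h2 lay above the mean of B and C under A in both groups. For Srebf1, A minus the mean of B and C was -0.27 in NonTG and -0.54 in hSOD1G93A (unadjusted p by limma 0.00686, adjusted 0.156). Its second probe set (1371104_at) read 608, 762 and 755 in NonTG and 570, 814 and 773 in hSOD1G93A, with both A arrays again the lowest. In the fits with an array left out, 1 letter had a single array, and more probe sets passed over the whole array than in the main fit. Calls of Srebf1 and Srebf2 in such fits are therefore not read as results about these genes. Srebf2 had its lowest array under B in both groups.

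**Figure D4:**
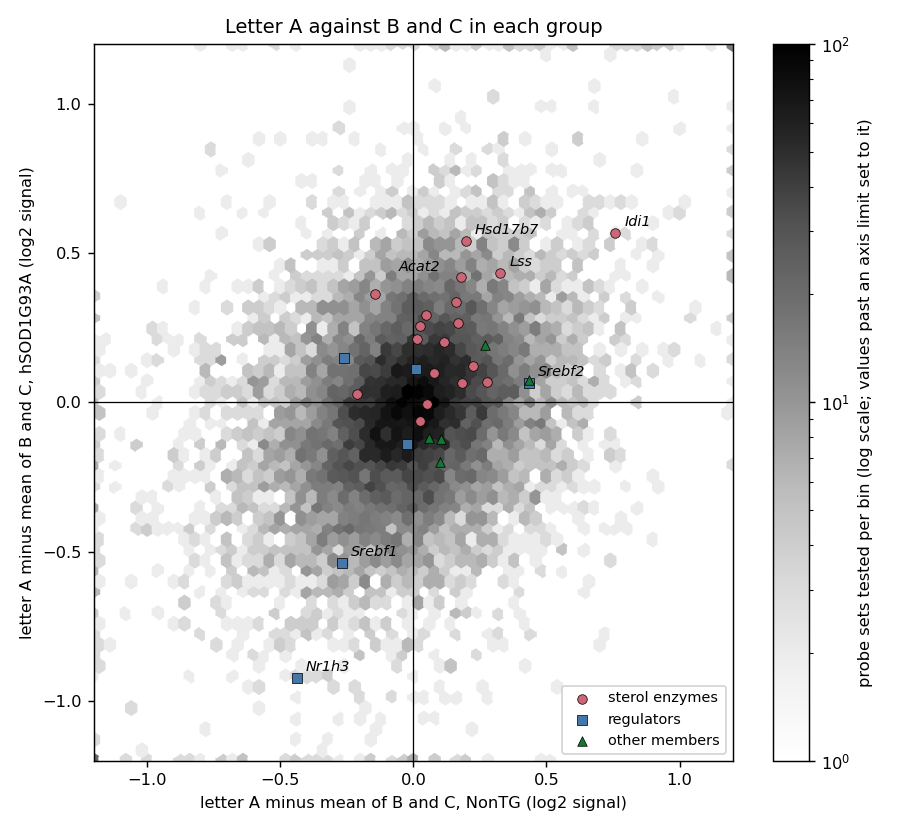
Letter A minus the mean of B and C, in log2 signal, in NonTG (horizontal) and hSOD1G93A (vertical) for 29 genes, over the density of 18625 probe sets tested (grey). Of the 18 sterol enzymes 14 lie above 0 in both groups and 0 below in both, while Srebf1 and Nr1h3 lie below 0 in both.

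The 2 groups hold different arrays, so A against B and C was read from each on its own. A lay above the mean of B and C in both groups for 18 of the 29 genes and for 14 of the 18 sterol enzymes, against 29.1% of all probe sets, and below it in both for 3 of the 29, against 31%. The median over the sterol enzymes was 0.14 in NonTG and 0.23 in hSOD1G93A, where all probe sets had -0.0011 and -0.01. Of the 14 genes with a second probe set above the filter, 6 had A highest in both groups on that probe set, 7 on the brightest and 4 on both.

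Of the 33 other pathway genes, 7 (21.2%) had A highest in both groups and 5 (15.2%) lowest, against 15.7% and 17.4% of all probe sets. None passed the test of the letters, and 7 (21.2%) had an unadjusted p below 0.05, against 15.6%. B was the highest in both groups for 10 (30.3%), against 16.2% of all probe sets. Me1, the malic enzyme that supplies reducing power for fatty acid synthesis, was at 2415, 1938 and 2639 in NonTG and 2593, 2000 and 2683 in hSOD1G93A, lowest under B in both (adjusted p by limma 0.0793). Thrsp, a lipogenic nuclear protein, was highest under B in both groups, at 258 and 268. Soat1, which esterifies cholesterol for storage, was at 1202, 874 and 1199 in NonTG and 1404, 937 and 1104 in hSOD1G93A. As for Idi1, both its A arrays stood above the 4 others, at 1.27-fold the mean of B and C (adjusted p by limma 0.132).

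Other measures also moved with the letter A. The summed signal of the 10 fibroblast and meningeal markers was 76022 to 76418 on the A arrays and 54184 to 72324 on the others. A was highest in both groups for 4 of the 10 (Col1a1, Col3a1, Aldh1a2 and Fn1) and lowest in both for Col1a2. Dcn, Lum and Postn were lowest under A in NonTG but highest under A in hSOD1G93A. The summed signal of 9 endothelial markers was 867 to 982 under A against 606 to 688. The summed signal of 9 astrocyte markers was lower under A, at 89852 to 95634 against 95842 to 107031. In NonTG the sums of A and C were almost equal, at 95634 and 95842. A was lowest in both groups for 4 of the 9 astrocyte markers and highest in both for 1, Glul. Pecam1, Cldn5, Tek, Vwf and Emcn of the endothelial list were below the dim filter. Most of the gap in the endothelial sum came from Eng, at 435 and 332 under A against 121 to 190, while Vwf and Emcn had means below those of B and C. Microglia markers summed to 862 to 1007 under A and 700 to 922 under B and C, carried by Tmem119 at 546 and 643. The other 2 microglia markers above the filter were lower under A, with A minus the mean of B and C at -0.47 for Laptm5 and -0.46 for Fcer1g. Pericyte and smooth muscle markers summed to 27336 to 29097 against 17638 to 29429. Of the 8 above the filter, A was highest in both groups for Rgs5 and Pdgfrb and lowest in both for 0. Acta2, Tagln, Myl9, Lmod1 and Cnn1 were highest under C in NonTG. Over these lists Fn1, Col3a1, Eng, Tmem119 and Rgs5 passed the test of the letters, with A highest in both groups (adjusted p by limma 0.0147 to 0.0433). Mbp passed too, highest under A in NonTG and B in hSOD1G93A. Over the array 1.05% of probe sets passed. The part of these cell types in the enzymes' pattern was not tested. The ratio of 3′ to 5′ signal of Gapdh, a sign of RNA integrity, was 0.996 and 0.998 under A, inside the range of the other arrays (0.954 to 1.01). The same ratio of actin was the lowest of its group under A, at 1.13 in NonTG and 1.10 in hSOD1G93A, against 1.11 to 1.19 on the other arrays. The median signal was also lowest on the A arrays, at 129 and 130.5 against 133 to 137. The part of these measures in the enzymes' pattern was not tested either.

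The promoters of Idi1 and of 4 other genes that ranked high by p between letters, none of which passed, are shown for the motifs they hold. Promoters, from 250 bases before to 50 after an annotated start, were at hand for 23 of the 29 genes, 24 in all, since Srebf1 has 2 starts. They are RefSeq sequences of the GRCr8 assembly, with symbols matched to the array. Letters searched on both strands were TCACNCCAC, a form of the sterol regulatory element, TCACGTGA, an E-box, CCAAT, the box bound by NF-Y, which works beside SREBPs, and AGGTCA repeated after a gap of 4 bases, which LXR binds. Only CCAAT was found in these promoters, so no overlap between motifs could occur. Capitals mark CCAAT, or ATTGG where it lies on the other strand.

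Idi1, chr17:66547475-66547774, minus strand: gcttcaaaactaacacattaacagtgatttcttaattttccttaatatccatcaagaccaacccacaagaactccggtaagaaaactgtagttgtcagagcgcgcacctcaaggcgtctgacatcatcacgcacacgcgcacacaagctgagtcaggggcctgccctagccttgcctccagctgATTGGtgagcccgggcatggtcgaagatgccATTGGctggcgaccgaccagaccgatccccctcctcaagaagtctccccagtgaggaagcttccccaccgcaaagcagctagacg
Lss, chr20:12118181-12118480, minus strand: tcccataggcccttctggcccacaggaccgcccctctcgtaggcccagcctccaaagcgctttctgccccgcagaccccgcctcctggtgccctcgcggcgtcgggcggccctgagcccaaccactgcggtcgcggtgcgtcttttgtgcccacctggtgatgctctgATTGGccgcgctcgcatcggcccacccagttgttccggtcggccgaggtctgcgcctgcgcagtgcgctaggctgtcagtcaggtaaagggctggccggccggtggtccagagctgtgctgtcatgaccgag
Fdps, chr2:176804767-176805066, minus strand: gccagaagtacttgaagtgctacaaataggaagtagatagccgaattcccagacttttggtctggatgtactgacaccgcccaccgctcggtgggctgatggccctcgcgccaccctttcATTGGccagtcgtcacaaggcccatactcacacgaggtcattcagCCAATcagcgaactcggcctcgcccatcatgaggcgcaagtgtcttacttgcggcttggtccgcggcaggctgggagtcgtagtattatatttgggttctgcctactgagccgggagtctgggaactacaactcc
Srebf2, chr7:115543057-115543356, plus strand: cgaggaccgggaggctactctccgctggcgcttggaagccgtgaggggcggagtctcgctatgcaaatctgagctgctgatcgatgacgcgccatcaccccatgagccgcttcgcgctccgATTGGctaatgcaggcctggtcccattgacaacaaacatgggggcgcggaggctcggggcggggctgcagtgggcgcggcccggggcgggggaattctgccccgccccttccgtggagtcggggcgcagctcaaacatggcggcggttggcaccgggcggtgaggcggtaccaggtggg
Srebf1, upstream start, chr10:45529115-45529414, minus strand: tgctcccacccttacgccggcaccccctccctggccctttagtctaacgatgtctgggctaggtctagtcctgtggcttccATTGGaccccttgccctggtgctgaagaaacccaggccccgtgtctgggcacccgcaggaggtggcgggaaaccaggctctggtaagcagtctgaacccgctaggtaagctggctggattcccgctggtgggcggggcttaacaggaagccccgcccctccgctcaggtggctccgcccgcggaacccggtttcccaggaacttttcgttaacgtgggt
Srebf1, downstream start, chr10:45518961-45519260, minus strand: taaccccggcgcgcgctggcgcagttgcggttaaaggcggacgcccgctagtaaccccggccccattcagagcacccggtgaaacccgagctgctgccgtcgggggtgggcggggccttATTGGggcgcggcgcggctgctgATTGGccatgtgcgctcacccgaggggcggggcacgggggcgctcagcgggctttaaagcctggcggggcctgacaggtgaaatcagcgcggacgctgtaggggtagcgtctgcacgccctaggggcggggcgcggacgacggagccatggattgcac

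These are the 5 genes with the smallest p for the letters among those that held a match. Idi1 holds 2 boxes, starting at -66 and -35 from the gene's start, and Lss holds 1 at -82. Fdps holds 2, at -130 and -85, on opposite strands. Srebf2 holds 1, and Srebf1, whose signals ran opposite to the enzymes' under A, holds 1 and 2 at its 2 starts.

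CCAAT was found in 18 of the 24 promoters, or 75.0%, and for 12 of the 15 sterol enzymes with a promoter. Of all 33469 promoters of that length 37.5% held it, and of 9827 promoters of genes above the dim filter 37.8%. TCACNCCAC, TCACGTGA and the AGGTCA repeat were in 0 of the 24, where 1.12%, 0.777% and 0.00598% of all promoters held them. These matches describe letters in a fixed window.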

How the data were processed

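Affymetrix rat genome arrays of 6 RNA samples, 3 NonTG and 3 hSOD1G93A, were analysed. The authors deposited linear signal intensity, which the submitters' processing notes credit to MAS5 and GCOS 1.4. GC-RMA and log values, named in the design text, are not what the deposited table holds. Log2 was taken with no pseudocount. After 57 control probe sets were left out, 31042 remained, and those with a mean log2 value above the 40th percentile (18625) were tested in limma 3.58.1 under R 4.3.3 with variance modelled on mean signal (an intensity trend). Tests were two-sided, and Benjamini-Hochberg adjustment ran over all probe sets tested. Genotype was fitted alone, and the letters by an F test with genotype in the fit. The code was tested on simulated data. An exact permutation test of 3 against 3 cannot go below p = 0.1. The number of arrays limits the precision.

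Symbols come from GEO's platform table, and those of all 29 genes were matched by Entrez identifier to RefSeq. The members and lists were chosen with earlier results of these data known. All members could be named. Signals per array are given for the 8 with the smallest p for genotype, the 8 for letters and a fixed set of regulators and enzymes. From the other pathway list the 3 genes with the smallest p in each test are named.

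Pairing by letter was checked on deviations from group means over the tested probe sets. Same-letter arrays of the 2 groups correlated at 0.30 (A), 0.25 (B) and 0.20 (C). Arrays of different letters correlated at -0.28 to 0.02. Deviations within a group sum to 0, so these values are not independent. As the same-letter values were the higher ones, the genotype fit was also run with the letter as a block. Other alternatives were quantile normalization, a pseudocount of 32, no filter or one at the 60th percentile, no trend, the mean over a gene's probe sets and leaving out each array. Counts of genes with A highest, and their alternatives, were added after the data were seen.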

Additional observations from a re-analysis of the deposited data

How the results depend on the processing

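With the letter as replicate block 0 of the 29 genes and 0 of all probe sets passed for genotype, with smallest adjusted p of 0.834 and 0.151 by limma, and 1 gene and 1090 probe sets had an unadjusted p below 0.05. The block changed no call. Of 103 alternative values of the 8 genes with the smallest p for genotype, 102 kept their sign and side of the threshold; Cyp51 was higher in hSOD1G93A by 0.047 with the mean over its probe sets. The number of genes without overlap between groups was 1 after quantile normalization, where the share over all probe sets was not computed. It was 3 to 9 without single arrays, against 14.4% to 22.6% of all probe sets. In the test of the letters 195 probe sets passed over the array, 110 with no filter, 0 without an intensity trend (2271 with an unadjusted p below 0.05), 104 without the genotype term and 341 to 1009 without single arrays. Of the 29 genes 0 passed with no filter or no trend, and 1 to 2 without single arrays, where a letter is left with 1 array; the cause was not tested. The count of genes with A highest in both groups was 6, of 14 genes, on the second brightest probe set. Of 98 alternatives of counts and medians, 78 stayed within 1.5 times the count or the spread between arrays. The mean over probe sets was not run for counts over the whole array, where genes would replace probe sets. Having only 2 arrays per letter, and signals near the dim filter for Nr1h3, limit these readings.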
